A study of Mus musculus with 6 samples.

Results

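miR-210 was measured as 2 arms, miR-210-3p and miR-210-5p, among 1189 miRNA entries by small RNA sequencing of prefrontal cortex from aged mice. The members were taken by name, as the 2 entries that come from the single mouse gene Mir210. The libraries came from 3 mice of the postoperative neurocognitive disorder (PND) group and 3 mice of the control (CON) group, with 1 library per mouse. All were wild type C57BL/6 males of 18 months by their age label, although the titles read 17M. PND mice spent 30 min in an oxygen chamber that had been prefilled with 1.5% isoflurane. They then underwent an exploratory laparotomy of 30 min under the same anesthetic, with lidocaine cream and povidone iodine on the wound afterward. Mice of the CON group received neither anesthesia nor operation before behavioral testing. According to the study's methods, mice of both groups were tested in the same mazes and chambers and were deeply anesthetized with isoflurane shortly before perfusion and dissection, so a final exposure to the anesthetic was shared by PND and CON.

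miR-210 is known as the miRNA most regularly induced by low oxygen. The transcription factor HIF, whose alpha subunits are degraded when oxygen is plentiful, binds near the Mir210 gene and raises its transcription. The mature 3p arm is loaded into Argonaute and lowers transcripts such as Iscu and Efna3, which serve iron-sulfur cluster assembly and ephrin signaling, and mature miRNAs can persist long after their transcription has ended. The comparison of PND with CON mice therefore addressed whether the level of this hypoxia-responsive miRNA differed days after anesthesia and surgery. No oxygen measurement and no HIF protein measurement was analysed here.

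The Mir210 hairpin lies on the minus strand of chromosome 7 in GRCm38.p6, at chr7:141221384-141221493, and its 110 bases overlapped no other gene in the RefSeq annotation. The nearest annotated genes were Rassf7, 2726 bp away on the side of lower coordinates, and Gm51460, 6713 bp away on the side of higher coordinates, followed by Phrf1 at 6984 bp. The hairpin and the 2 arms are shown because they are the RNAs whose reads were counted, by their positions in miRBase. They are the RefSeq sequences. In the hairpin the capitals mark the 5p arm (bases 28 to 49, counted from 1 at the 5′ end) and then the 3p arm (bases 66 to 87), and in each arm they mark the seed, bases 2 to 8, which pairs with target transcripts.
Mir210 hairpin: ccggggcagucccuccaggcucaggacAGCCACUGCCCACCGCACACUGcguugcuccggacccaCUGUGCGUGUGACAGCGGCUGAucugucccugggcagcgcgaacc
mmu-miR-210-3p: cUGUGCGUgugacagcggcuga
mmu-miR-210-5p: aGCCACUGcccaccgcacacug
Both arms are 22 bases long. The 3p arm lies at chr7:141221407-141221428 and the 5p arm at chr7:141221445-141221466. Among 1678 other mature mouse miRNAs in the RefSeq table, 0 shared the seed of the 3p arm and 0 shared the seed of the 5p arm. The closest other mature sequences differed from each arm by 7 single-base edits. No near-identical copy in that table could therefore share reads with miR-210, as happens in larger miRNA families.

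The libraries held between 14849461 and 19471226 reads on miRNAs, recovered from the deposited values as described in the processing notes. Values are in CPM, reads per 1000000 miRNA reads of the library. The detection floor was set at 3 reads, or 0.154 to 0.202 CPM depending on the library, and intervals from read numbers cover counting error only. The neuronal markers miR-124-3p, miR-128-3p, miR-9-5p, miR-9-3p and miR-138-5p made up 28.5% to 37.5% of each library. CON mouse 2 stood apart in composition. miR-128-3p, the most abundant entry, made up 29.2% of its reads and 17.6% to 23.2% elsewhere.

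miR-210-3p was higher in every PND mouse than in every CON mouse. It had 33.7, 36.9 and 35.9 CPM in PND mice 1, 2 and 3, and 31.7, 20.7 and 27.5 CPM in CON mice 1, 2 and 3. These levels rest on 656, 649 and 636 reads for PND and on 484, 307 and 442 reads for CON. The 3 PND mice lay close together, the CON mice were spread out, and the groups were separated by a gap of 2.01 CPM between PND mouse 1 and CON mouse 1. Averaged by group, PND mice had 35.5 ± 1.63 CPM (SD, n = 3) and CON mice had 26.6 ± 5.56 CPM (SD, n = 3), a ratio of 1.33.

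**Figure D1:**
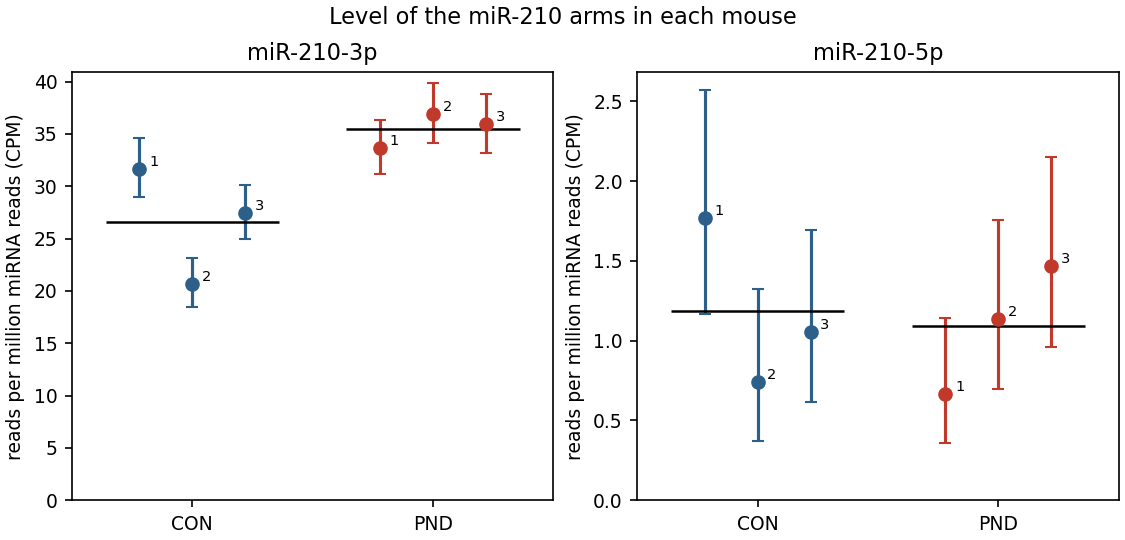
Level of miR-210-3p (left) and miR-210-5p (right) in CPM in each mouse of the CON and PND groups. Points are single libraries with the mouse number, bars are exact Poisson 95% counting intervals, and black lines are group means. The 3p points of PND lie between 33.7 and 36.9 CPM, above all CON points, whereas the 5p points of the groups overlap.

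The group difference of miR-210-3p passed an unadjusted limit but not an adjusted one. The log2 fold change on log2(CPM + 1) was 0.42 (standard error 0.17, 95% interval 0.02 to 0.83, unadjusted p = 0.0429 and adjusted p = 0.77, limma, Benjamini-Hochberg over 1189 entries). As a fold change this was 1.34, with an interval of 1.01 to 1.77, so the 2-fold change that the study required lay outside the interval. In this limma fit, an unadjusted p under 0.05 and a change above 2-fold on log2(CPM + 1) were passed together by 0.0841% of all entries. An adjusted p under 0.05 was reached by 0.421%, with neither arm of miR-210 among them. The study set the same 2 limits but describes p-values from edgeR and fold changes of TPM values. It reported more miRNAs past them, so the share given here is not the study's own yield. Over all entries, 5.13% had an unadjusted p under 0.05 in limma, 4.04% with higher levels in PND and 1.09% with lower levels. Of the 361 entries with a mean of at least 10 CPM, 9 passed that limit in the same fit with PND higher and 0 with PND lower. Among these 361, 0 had an adjusted p under 0.05. The groups did not overlap with PND higher for 7.91% of all entries and with CON higher for 2.02%. PND was higher without overlap for 8.59% of the 361 entries with a mean of at least 10 CPM. An exact permutation test over the 6 mice gave a two-sided p of 0.1, which is the smallest that 3 mice against 3 allow.

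The size of the difference depended on how the libraries were scaled and on CON mouse 2. The 361 entries with a mean of at least 10 CPM had a median log2 fold change of 0.14 in CPM, and TMM factors, which scale libraries to a trimmed mean of ratios, brought that median to 0.02. The TMM factor of CON mouse 2 was 0.86, against 0.99 to 1.07 in the other libraries. With TMM scaling miR-210-3p had 33.7, 34.7 and 33.6 CPM in the PND mice and 30.7, 24.0 and 27.7 CPM in the CON mice. The groups still did not overlap, and the log2 fold change was 0.30 (standard error 0.13, unadjusted p = 0.0486 and adjusted p = 0.82 from limma). Other scalings brought the unadjusted p above 0.05, to 0.0615 in limma with DESeq2 size factors and to 0.053 in limma with the library total taken without miR-128-3p. The count-based tests did so as well, with unadjusted p-values of 0.0637 in limma-voom, 0.0819 in edgeR and 0.082 in DESeq2. Relative to the median of the 361 entries, miR-210-3p was 0.29 higher on the log2 scale both in CPM and with TMM factors. Of the other 360 entries at this abundance, 10.6% had a log2 fold change in CPM at least as large as that of miR-210-3p. When CON mouse 2 was left out, the difference in CPM fell to 0.26 on the log2 scale (unadjusted p = 0.074, limma). Leaving out PND mouse 1, 2 or 3 or CON mouse 3 also brought the unadjusted p above 0.05 in limma (0.0818, 0.121, 0.105 and 0.08), with log2 fold changes of 0.39 to 0.46, and leaving out CON mouse 1 gave 0.55 with an unadjusted p of 0.015.

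**Figure D2:**
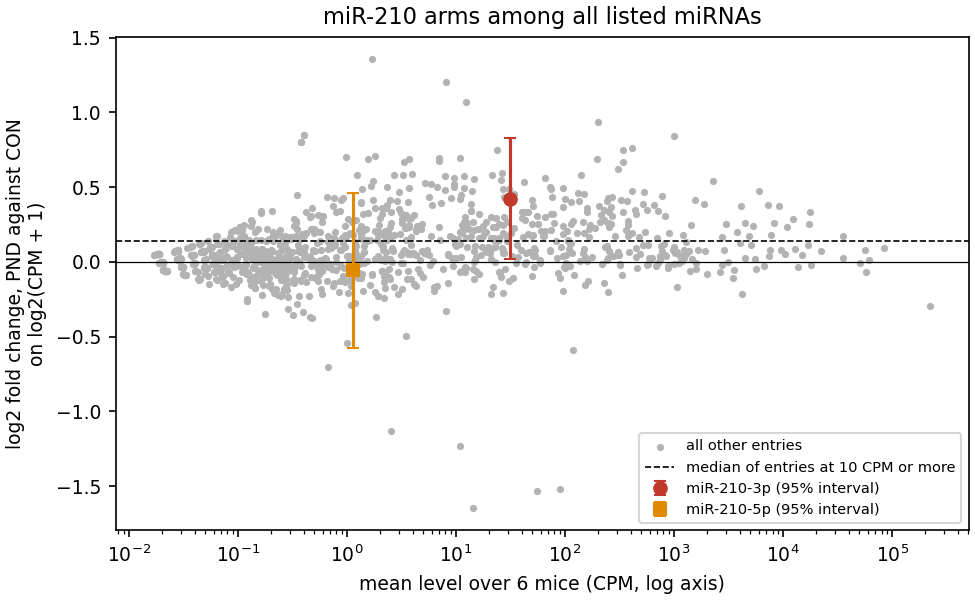
Log2 fold change of PND against CON on log2(CPM + 1) for each of the 1189 entries, plotted against the mean level over 6 mice on a log axis in CPM. The miR-210 arms are drawn with 95% intervals from limma, and the dashed line is the median of the entries with at least 10 CPM, 0.14. miR-210-3p lies above that line, among many entries with changes of like size, and the interval of miR-210-5p spans 0.

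In CPM the spread of miR-210-3p was wider in the 3 CON mice than in the 3 PND mice, a difference that was not tested. Its coefficient of variation was 4.60% in the PND mice, where counting error alone gives 3.90% to 3.97% per library, and 20.9% in the CON mice, where counting error gives 4.55% to 5.71%. In the order of the mice from highest to lowest, PND mouse 2 was followed by PND mice 3 and 1 and then by CON mice 1, 3 and 2. The 95% counting intervals of neighbours in this order overlapped, also between PND mouse 1 (31.2 to 36.4 CPM) and CON mouse 1 (28.9 to 34.6 CPM), except between CON mouse 3 (24.96 to 30.1 CPM) and CON mouse 2 (18.4 to 23.1 CPM). The within-group SD of miR-210-3p on log2(CPM + 1) was 0.22, and the median of the 361 entries was 0.19. The size of the spread depended on scaling, but it was wider in CON with and without TMM factors. With TMM factors the SD of miR-210-3p was 0.573 CPM in PND and 3.35 CPM in CON, against 1.63 and 5.56 CPM without them.

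miR-210-5p, the arm that is mostly discarded when the duplex is loaded, was scarce and did not separate the groups. It had 0.668, 1.14 and 1.47 CPM in PND mice 1, 2 and 3, and 1.77, 0.741 and 1.06 CPM in CON mice 1, 2 and 3. Only 13, 20 and 26 reads stood behind the PND levels and 27, 11 and 17 reads behind the CON levels, all above the floor of 3 reads. The highest level was in CON mouse 1 and the lowest in PND mouse 1, and the ranges of the groups overlapped over most of their length. The mean was 1.09 ± 0.402 CPM (SD, n = 3) in PND and 1.19 ± 0.526 CPM (SD, n = 3) in CON (exact permutation test, two-sided, p = 0.9). On log2(CPM + 1) the log2 fold change came to -0.06 (standard error 0.22, 95% interval -0.58 to 0.46, adjusted p = 0.96 from limma), a scale that understates changes at this level. With a pseudocount of 0.1 the log2 fold change was -0.10, with a standard error of 0.40. Counting error alone was 19.2% to 30.2% of the level in each library, so a difference of the size seen for the 3p arm was not detectable for the 5p arm at this depth.

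The balance of the arms was measured within each library, where scaling between mice has no part. Over all libraries, 3174 reads fell on miR-210-3p and 114 on miR-210-5p, so the 3p arm held 96.5% of the miR-210 reads. By mouse, the share of the 3p arm was 98.1%, 97.0% and 96.1% in PND mice 1, 2 and 3 and 94.7%, 96.5% and 96.3% in CON mice 1, 2 and 3. The Wilson 95% intervals ran from 96.7% to 98.9% in PND mouse 1, the highest, and from 92.4% to 96.3% in CON mouse 1, the lowest. The groups overlapped, since PND mouse 3 lay below CON mice 2 and 3. The log2 ratio of 3p to 5p, with 0.05 CPM added to each, was 5.03 ± 0.50 (SD, n = 3) in PND and 4.49 ± 0.32 (SD, n = 3) in CON (exact permutation test, two-sided, p = 0.3).

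**Figure D3:**
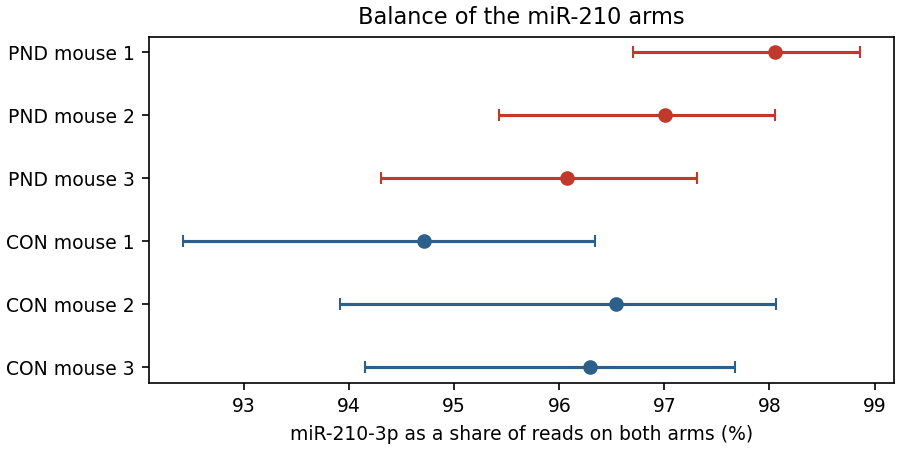
Share of miR-210-3p among the reads on both arms, in percent, for each mouse, with Wilson 95% intervals. Red marks PND and blue marks CON, and the axis does not start at 0. Shares lie between 94.7% and 98.1%, and the intervals overlap between all mice except PND mouse 1 and CON mouse 1.

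This imbalance is common among the listed miRNAs. Of 279 pairs of arms with at least 100 reads in all, 144 had more reads on the 3p arm, and the median share of the major arm was 96.9%. A more unequal balance than that of miR-210 was found in 145 of the 279 pairs.

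Among all entries, 21.8% had a higher mean level than miR-210-3p. Its mean over the 6 mice, 31.0 CPM, ranked 260 of 1189, and its rank within single libraries ran from 251 to 271. The entry just above in mean level with a miRBase name was miR-497a-5p at 32.2 ± 5.94 CPM (SD, n = 6 mice), and the entry just below was miR-1981-3p at 30.5 ± 1.98 CPM (SD, n = 6 mice). These neighbors differed from miR-210-3p by less than its own spread between mice. miR-210-5p ranked 564, with a mean of 1.14 CPM, between miR-382-3p at 1.14 CPM and miR-6954-3p at 1.13 CPM.

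The miRNAs whose levels followed miR-210-3p most closely over the 6 mice were miR-872-3p, miR-708-5p and miR-652-3p. Likeness was measured as the root-mean-square difference of log2(CPM + 1) after centring each miRNA on its own mean, over 359 named candidates that averaged 10 CPM or more. The difference was 0.05 for miR-872-3p, 0.09 for miR-708-5p and 0.09 for miR-652-3p, with a median of 0.23 over the candidates. miR-872-3p had 53.4, 59.4 and 57.0 CPM in the PND mice and 50.1, 31.7 and 47.2 CPM in the CON mice. As with miR-210-3p, every PND mouse lay above every CON mouse and CON mouse 2 was lowest. The fit gave miR-872-3p a log2 fold change of 0.41, with 0.19 as its standard error (adjusted p = 0.77, limma). These likenesses follow from choosing it by its smallest difference over the same 6 mice, and are not separate evidence. For miR-708-5p and miR-652-3p the groups overlapped, and CON mouse 2 again had the lowest level, 301 and 184 CPM. The 5p arm of the same hairpin differed from the 3p arm by 0.28 on this measure. A profile with the same level in every mouse would also differ by 0.28. The 5p arm averaged 1.14 CPM, below the 10 CPM asked of the candidates, so this value cannot show whether the arms followed each other.

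Among other miRNAs linked to hypoxia, in the 2 lists described next, only miR-20a-5p passed the unadjusted limit in limma. The first list held 13 miRNAs that have been reported to increase under low oxygen in cultured cells, namely miR-23a-3p, miR-23b-3p, miR-24-3p, miR-26a-5p, miR-26b-5p, miR-27a-3p, miR-103-3p, miR-107-3p, miR-181a-5p, miR-181b-5p, miR-181c-5p, miR-155-5p and miR-322-5p. Of these, 0 of 13 had an unadjusted p under 0.05 in limma, which 5.13% of all entries had, and 0 of 13 had an adjusted p under 0.05, and the edgeR quasi-likelihood test and DESeq2 also had 0 of 13 at an unadjusted p under 0.05, where 4.21% and 2.36% of all entries tested passed. Their median log2 fold change was 0.09, beside 0.05 over all entries and 0.14 over the entries with at least 10 CPM. The groups overlapped for all 13 members, where 7.91% of all entries had PND higher without overlap and 2.02% had CON higher. The members with the smallest p were miR-107-3p and miR-322-5p. miR-107-3p, hosted in a gene for pantothenate kinase, had 718, 780 and 890 CPM in the PND mice and 738, 529 and 625 CPM in the CON mice. This was a log2 fold change of 0.34 (standard error 0.15, unadjusted p = 0.0503, limma), and it differs from miR-103-3p by so little that the 2 could share reads. miR-322-5p, the mouse counterpart of human miR-424, had 7.65, 11.0 and 12.8 CPM in the PND mice and 8.31, 6.26 and 7.70 CPM in the CON mice, with a log2 fold change of 0.43 (standard error 0.21, unadjusted p = 0.0801, limma). The most abundant member, miR-26a-5p, had a log2 fold change of -0.07 with a 95% interval of -0.25 to 0.11.

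The second list held 9 miRNAs reported to target Hif1a, which encodes the oxygen-regulated HIF subunit, or a protein that restrains HIF. They were miR-17-5p, miR-18a-5p, miR-20a-5p, miR-20b-5p, miR-199a-5p, miR-138-5p, miR-31-5p, miR-135b-5p and miR-429-3p. Of these, 1 had an unadjusted p under 0.05 in limma, with a higher level in PND, and 0 of 9 had an adjusted p under 0.05, where 4.04% of all entries passed the unadjusted limit with PND higher. The median log2 fold change of the list was 0.29, beside 0.05 over all entries and 0.14 over those with at least 10 CPM. The groups did not overlap with PND higher for 2 of the 9 members, and for 7.91% of all entries. The member past the unadjusted limit was miR-20a-5p of the miR-17 to miR-92 cluster, with 76.2, 82.7 and 103 CPM in the PND mice and 70.8, 51.4 and 71.6 CPM in the CON mice. The groups did not overlap, and the log2 fold change was 0.43 (standard error 0.18, unadjusted p = 0.0438 and adjusted p = 0.77 from limma). The near-identical miR-20b-5p, which could share its reads, also had groups that did not overlap, at 2.14 ± 0.641 CPM (SD, n = 3) in PND and 1.35 ± 0.42 CPM (SD, n = 3) in CON. miR-429-3p of the miR-200 family had 71.0 CPM in CON mouse 1 and between 2.10 and 4.29 CPM in the other mice, so its log2 fold change of -1.65 rested on that mouse.

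**Figure D4:**
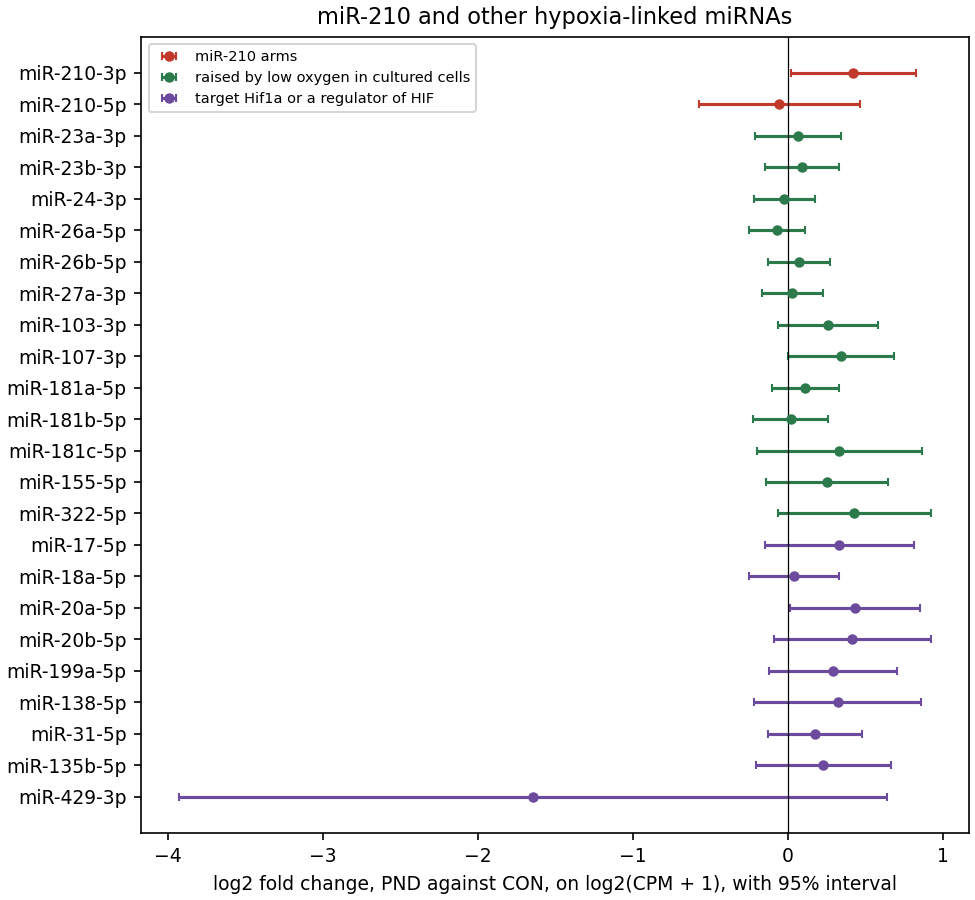
Log2 fold change of PND against CON on log2(CPM + 1), with 95% intervals from limma, for the miR-210 arms (red), 13 miRNAs raised by low oxygen in cultured cells (green) and 9 miRNAs that target Hif1a or a regulator of HIF (purple). The intervals of miR-210-3p and miR-20a-5p lie just above 0, and those of the other members include 0.

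Marker miRNAs of other cell types were set beside miR-210-3p, since in bulk tissue a change in the number of cells of a type cannot be told apart from a change in RNA per cell. The 5 red blood cell markers (miR-451a, miR-144-3p, miR-144-5p, miR-486a-5p and miR-486b-5p) summed to 112 to 191 CPM in the PND mice and 84.9 to 117 CPM in the CON mice. Of these markers, 0 of 5 had an unadjusted p under 0.05 in limma, which 5.13% of all entries had. For 1 of 5, miR-486b-5p, PND was higher without overlap, as for 7.91% of all entries. It had 89.6, 65.1 and 63.7 CPM in the PND mice and 62.4, 53.0 and 59.6 CPM in the CON mice. The groups overlapped for the other members. miR-451a had 40.9 CPM in PND mouse 1 and 0.621 to 3.08 CPM in the other mice. The sum was highest in PND mouse 1, which had the lowest miR-210-3p of the PND mice, and was lowest in CON mouse 2, as was miR-210-3p. The 2 endothelial markers, miR-126a-3p and miR-126a-5p, summed to 13326 to 13992 CPM in PND and 11991 to 14372 CPM in CON. The sum was mostly miR-126a-3p, with a log2 fold change of 0.08. The scarcer miR-126a-5p had 389, 478 and 565 CPM in the PND mice and 386, 255 and 399 CPM in the CON mice. Its groups overlapped, with a log2 fold change of 0.47 (unadjusted p = 0.055 and adjusted p = 0.77, limma). The 3 oligodendrocyte markers summed to 1575 to 1765 CPM in PND and 1384 to 1607 CPM in CON. The 3 leukocyte markers, miR-223-3p, miR-142a-3p and miR-142a-5p, summed to 11.5 to 21.4 CPM in PND and 7.41 to 15.8 CPM in CON. Of these, 1 of 3 passed an unadjusted p of 0.05 in limma with PND higher, as did 4.04% of all entries. The member past the limit was miR-142a-5p, at 2.11 ± 0.294 CPM (SD) in PND and 1.21 ± 0.449 CPM (SD) in CON. Its log2 fold change was 0.51 (unadjusted p = 0.0336 and adjusted p = 0.77, limma). Every PND mouse lay above every CON mouse, as for 7.91% of all entries. The other 2 leukocyte markers overlapped between the groups and went in opposite directions. The log2 fold change was 0.44 for miR-142a-3p and -0.23 for miR-223-3p, at 1.69 CPM in PND and 2.14 CPM in CON. The summed ranges of these 4 lists overlapped between the groups, and CON mouse 2 was lowest in each of the 4 sums. CON mouse 2 was also lowest for the neuronal markers miR-124-3p, miR-9-5p, miR-9-3p and miR-138-5p. Their levels there were 4018, 74051, 4181 and 268 CPM. Of the neuronal markers, only miR-128-3p was highest in CON mouse 2. The 5 epithelial markers of the miR-200 family summed to 861 CPM in CON mouse 1 and to 27.3 to 36.7 CPM in the other mice. In CON mouse 1 miR-210-3p had 31.7 CPM, below every PND mouse and above CON mice 2 and 3, at 20.7 and 27.5 CPM. The part of these markers in the difference of miR-210-3p was not tested.

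**Figure D5:**
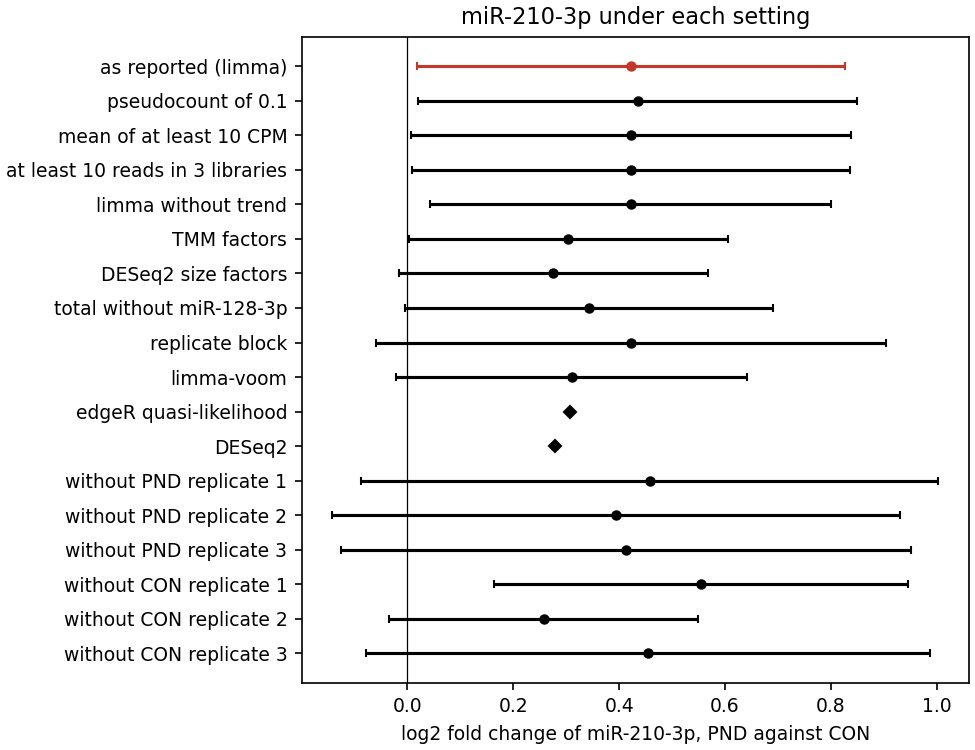
Log2 fold change of miR-210-3p, PND against CON, as reported (red) and under each other setting (black), with 95% intervals where the method gives one. Diamonds mark edgeR and DESeq2, for which no interval is drawn. All estimates are above 0, from 0.26 without CON mouse 2 to 0.55 without CON mouse 1, and 11 of the 17 other settings had an unadjusted p above 0.05.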

How the data were processed

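Small RNA libraries of 6 mice were analysed, 3 PND and 3 CON, grouped by the sample titles. The values deposited by the authors are CPM, reads per 1000000 miRNA reads, which the study calls TPM. Per its methods, reads were filtered with fastx, aligned with Bowtie (0.12.2 in the submitters' processing notes, which list mm8 and mm9 with no role), assigned by miRBase positions and scaled by TMM and total. Every column added up to 1000000, so TMM factors left no trace in the values. The study's methods name a small RNA library kit and the labels a total RNA kit. The rule for reads matching several places is not given in the sources used here.

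All values (100% per library) came out as whole reads within 0.05 reads, which gave back the read numbers. No library was a copy of another (chi-square per degree of freedom of at least 120 within groups). The design had named limma for normalized values and edgeR for counts, so limma 3.58.1 (eBayes with trend, R 4.3.3) was fitted to all 1189 entries as log2(CPM + 1), with Benjamini-Hochberg adjustment. On the recovered reads, edgeR 4.0.16 called 5 entries at an adjusted p under 0.05 and DESeq2 1.42.0 called 5, as did limma with 5, and none was an arm of miR-210. Single values were compared by exact permutation tests (scipy 1.17.1). The models were tested on simulated data. Named miRNAs are both arms, the members of the lists with the smallest p, the 3 most alike in pattern and the neighbors in level. Epithelial and red blood cell markers are named for the libraries that stand apart. Of the names listed, 997 matched a RefSeq mature sequence (GRCm38.p6). The deposited values carry no coordinates. The members and the lists were chosen with earlier results of these data known. Whether same-numbered mice were handled together is not stated, and p-values measure the spread between these mice.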

Additional observations from a re-analysis of the deposited data

How the results depend on the processing

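With an unadjusted p of 0.05 as the limit, miR-210-3p kept its direction in all 17 other settings run and stayed under the limit in 6. Its log2 fold change and unadjusted p were 0.28 and 0.0615 with DESeq2 size factors, 0.34 and 0.053 with the library total taken without miR-128-3p, 0.31 and 0.0637 with limma-voom, 0.31 and 0.0819 with edgeR's quasi-likelihood test, and 0.28 and 0.082 with DESeq2. With the replicate number as a block in limma it was 0.42, with an unadjusted p of 0.0756 and an adjusted p of 0.75. Same-numbered libraries had correlations of -0.13 to 0.51 (mean 0.17) in their deviations from the group means. Differently numbered libraries had -0.55 to 0.50 (mean -0.08). These ranges overlapped and 3 of 6 libraries correlated best with their own number, so the numbers were not taken to pair the mice. These values do not exclude a pairing. The block brought the entries with an unadjusted p under 0.05 from 61 to 56 and those with an adjusted p under 0.05 from 5 to 0. With each mouse left out in turn the log2 fold change of miR-210-3p lay between 0.26 and 0.55 in limma and between 0.26 and 0.56 as a log2 ratio of group means. The limma p was 0.0818, 0.121 and 0.105 without PND mouse 1, 2 or 3, 0.074 and 0.08 without CON mouse 2 or 3, and 0.015 without CON mouse 1. Its adjusted p lay between 0.57 and 0.98 in all settings.

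miR-210-5p had a negative log2 fold change in all 10 settings that kept all mice, and could not be fitted with a mean of at least 10 CPM required. When single mice were left out it ranged from -0.21 to 0.13 in limma, and was above 0 without PND mouse 1 (0.10) and without CON mouse 1 (0.13). As a log2 ratio of group means it lay between -0.40 and 0.28, with 0.13 and 0.28 without those same mice. The difference in the log2 arm ratio was 0.54, or 0.50 with 0.5 CPM added (exact permutation p = 0.1), and ranged from 0.27 to 0.77 when single mice were left out. The first hypoxia list had 1 member past the unadjusted limit with a pseudocount of 0.1, and 0 to 1 with each mouse left out. These were miR-107-3p with that pseudocount and without CON mouse 1, and miR-322-5p without PND mouse 1. Depth limits the 5p arm, with 11 to 27 reads per library. The causes of these changes were not tested.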
